A study of Homo sapiens with 72 samples.

Results

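Omaveloxolone at 0.12 µM was set against omaveloxolone at 0.04 µM in wildtype normal human dermal fibroblasts, primary skin cells from a commercial supplier, 24 h after the drug was added. The wells were chosen by their labelled dose alone, 4 at 0.12 µM and 4 at 0.04 µM, of 72 wells on one 384-well plate. Every gene that passed a filter on low counts was compared, 14269 of 23170 in the table. The doses on either side, 0.37 and 0.014 µM with 4 wells each, and 32 wells with the vehicle DMSO gave points of comparison. The question was which genes had already reached their level at 0.04 µM and which were still moving at the next dose up.

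Omaveloxolone is a semisynthetic triterpenoid drug. It targets KEAP1, an adaptor of a ubiquitin ligase through which the transcription factor NRF2 is normally degraded. When KEAP1 is blocked, NRF2 accumulates and pairs with small MAF proteins on antioxidant response elements in the DNA. Its targets make and use glutathione and thioredoxin, detoxify quinones, supply NADPH and handle heme and iron. The repressor BACH1 competes for the same elements at some of these genes, of which HMOX1 is the best known.

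Messenger RNA was read with DRUG-seq, in which each well receives its own barcode and its polyadenylated RNA is pooled with that of other wells for sequencing. Wells at 0.12 µM held 6846371 to 9001372 counts, against 5633772 to 8089739 at 0.04 µM. They had 13434 to 14364 genes with a count, against 13227 to 14100 at 0.04 µM. Levels below are CPM, counts scaled to library size with TMM factors, and are not divided by transcript length, so they are compared within a gene only. Each dose filled plate columns of its own, 7 and 17 for 0.12 µM and 8 and 18 for 0.04 µM, so that dose and column cannot be told apart. Replicates 1 and 3 lay in the right side of the plate and replicates 2 and 4 in the left side, and well values are given in the order of these numbers. The labels call the wells biological replicates but name no separate donors or cultures, so p-values measure the spread between wells of one plate, which may be technical. A bulk well does not tell fewer cells of a type from less RNA per cell.

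All 14 listed fibroblast markers were counted, and their sum before TMM scaling lay between 57280 and 59230 CPM at 0.12 µM, against 59910 to 69310 CPM at 0.04 µM. The sums of the other marker lists were 358.1 to 439.3 CPM against 370.2 to 493 CPM for keratinocytes, 13.2 to 39.7 CPM against 16.2 to 49.1 CPM for melanocytes and 3.09 to 8.85 CPM against 3.21 to 4.45 CPM for endothelium. They were 74.8 to 112.8 CPM against 88.0 to 137.8 CPM for immune cells and 1.67 to 3.94 CPM against 0.618 to 6.04 CPM for Schwann cells and adipocytes. KRT10, at 390.3 CPM against 404.1 CPM, made up most of the keratinocyte sum, and 5 of the 7 keratinocyte markers counted were under 1 CPM. TP63, TYRP1, CDH5, TEK, LYZ, TYROBP, S100B, PLIN1 and FABP4 had no count in any of the 8 wells.

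Few genes passed the test between these doses. HMOX1 was the one gene called higher at 0.12 µM (0.00701% of genes tested) and MT-CO3 the one called lower (0.00701%), at an adjusted p under 0.05 in edgeR's quasi-likelihood test with Benjamini-Hochberg adjustment. Without adjustment, 648 genes had a p under 0.05, and DESeq2's Wald test called 3 genes higher and 18 lower. The 4 wells at 0.12 µM lay all above the 4 at 0.04 µM for 249 genes (1.75%) and all below for 234 (1.64%). For 647 genes (4.53%) the 95% interval of the change lay within 1.5-fold either way. Such genes are called held here, since a p that misses the threshold does not by itself show a plateau.

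How well a plateau could be seen depended on a gene's level. The median standard error of the log2 change was 1.25 for 6587 genes under 10 CPM, of which 0 were held, and 0.44 for 6212 genes between 10 and 100 CPM, of which 83 were held. At 100 to 1000 CPM the median error was 0.26, and 470 of 1357 genes were held (34.6%). From 1000 CPM upward it was 0.14, and 94 of 113 were held (83.2%). For most genes of low level a change of 1.5-fold could be neither shown nor bounded in this fit. Its spread was estimated over all 72 wells. These include the wells at 1.11, 3.33 and 10 µM, with means of only 1640300, 237700 and 72712 counts.

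HMOX1 encodes heme oxygenase 1, which opens the heme ring and releases iron, biliverdin and carbon monoxide. Its level was 8302, 10145, 7489.7 and 9628 CPM in the wells at 0.12 µM, against 2319.6, 3275, 2468 and 2593 CPM at 0.04 µM. The groups were far apart, and at both doses the left-side wells were the higher ones. HMOX1 rose 3.34-fold (95% interval 2.41 to 4.63; log2 change 1.74 ± 0.24 SE, adjusted p = 2.88e-06 in edgeR's quasi-likelihood test, n = 4 wells each). The log2 change was 1.75 in the left side of the plate and 1.72 in the right side. It was called in all 8 fits that left out 1 well of either dose, with log2 changes of 1.68 to 1.86.

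HMOX1 was also the one gene called higher in the step below. Its mean was 401 CPM in DMSO wells, 838 CPM at 0.014 µM, 2664 CPM at 0.04 µM, 8891 CPM at 0.12 µM and 14542 CPM at 0.37 µM. At 0.04 against 0.014 µM it rose by 1.67 on the log2 scale (adjusted p = 9.97e-06), and at 0.37 against 0.12 µM by 0.71 (adjusted p = 0.0405, edgeR quasi-likelihood). The difference between the step at 0.12 µM and the one below was not called (adjusted p = 1.00), nor was the difference between the one above and this one (adjusted p = 0.280). At 0.04 µM the mean of HMOX1 had covered 26.7% of its distance between DMSO and 0.12 µM.

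**Figure D1:**
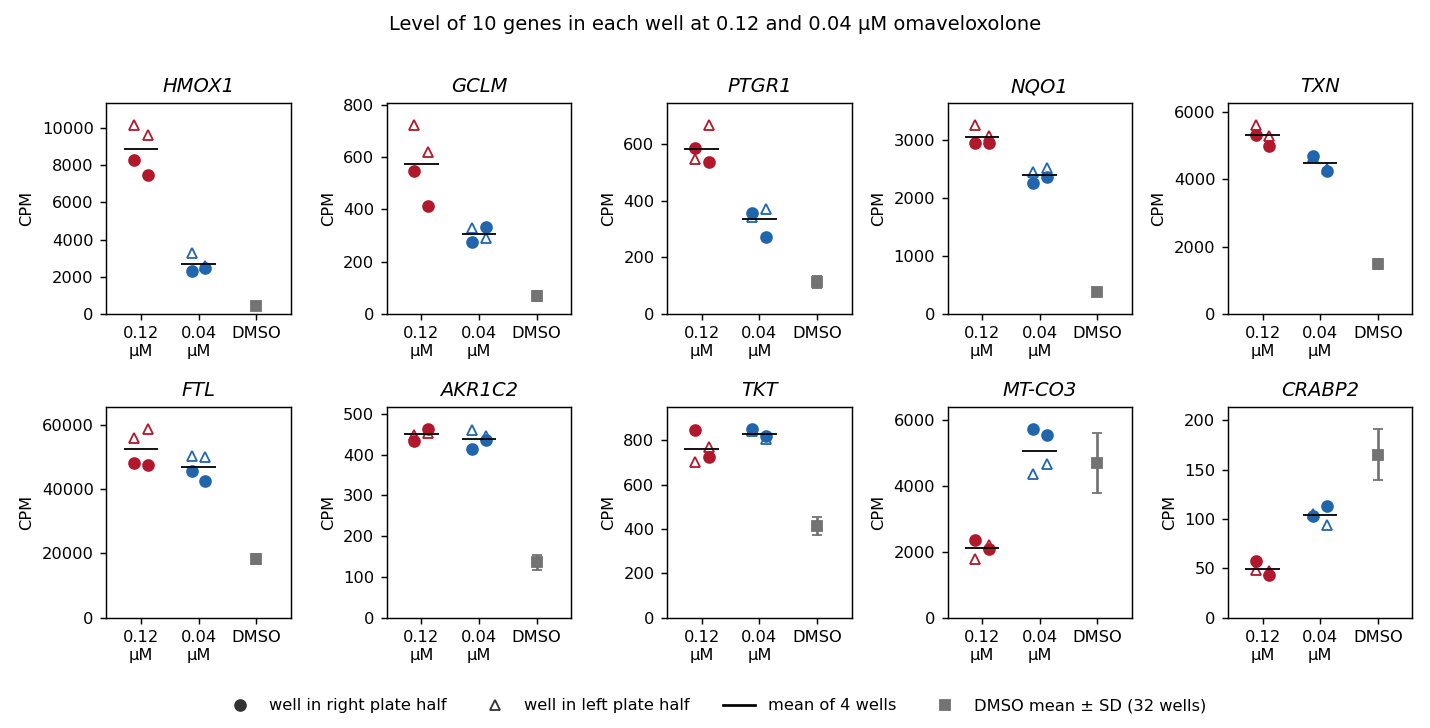
Level in CPM of 10 genes in each well at 0.12 µM (red) and 0.04 µM (blue), with the DMSO mean and SD over 32 wells (grey squares). Circles are wells of the right plate side, triangles wells of the left side, and lines are means of 4 wells; HMOX1 and MT-CO3 separate widely, while AKR1C2 and TKT overlap.

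Promoters of 3 NRF2 targets are printed because they hold the core of an antioxidant response element and belong to genes that differ in their step, with GCLM higher in every well and CBR1 held. Each is a window of 250 bases before to 50 bases after a transcription start, from RefSeq on GRCh38.p14, along the gene's own strand. Capitals mark the motif TGACNNNGC, searched on both strands. TXNRD1 has more than one start, and both windows with the motif are given.
GCLM promoter (chr1:93909381-93909680, minus strand): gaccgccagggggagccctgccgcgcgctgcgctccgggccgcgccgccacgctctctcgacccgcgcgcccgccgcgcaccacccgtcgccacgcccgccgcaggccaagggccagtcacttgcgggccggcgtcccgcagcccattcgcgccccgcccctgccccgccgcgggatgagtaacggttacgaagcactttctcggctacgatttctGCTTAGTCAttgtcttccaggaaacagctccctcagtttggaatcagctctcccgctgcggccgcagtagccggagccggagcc
TXNRD1 promoter (chr12:104215529-104215828, plus strand): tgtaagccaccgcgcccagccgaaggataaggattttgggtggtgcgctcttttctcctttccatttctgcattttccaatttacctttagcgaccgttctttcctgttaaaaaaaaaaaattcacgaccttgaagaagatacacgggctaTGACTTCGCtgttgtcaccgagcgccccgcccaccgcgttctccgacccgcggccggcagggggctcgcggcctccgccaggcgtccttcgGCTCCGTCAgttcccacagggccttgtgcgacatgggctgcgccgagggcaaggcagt
TXNRD1 promoter (chr12:104286782-104287081, plus strand): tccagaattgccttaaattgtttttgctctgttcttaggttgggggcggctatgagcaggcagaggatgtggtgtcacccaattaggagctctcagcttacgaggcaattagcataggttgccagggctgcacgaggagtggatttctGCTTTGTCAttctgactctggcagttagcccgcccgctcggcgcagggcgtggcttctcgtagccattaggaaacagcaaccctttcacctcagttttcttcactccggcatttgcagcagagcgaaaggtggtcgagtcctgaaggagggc
CBR1 promoter (chr21:36069774-36070073, plus strand): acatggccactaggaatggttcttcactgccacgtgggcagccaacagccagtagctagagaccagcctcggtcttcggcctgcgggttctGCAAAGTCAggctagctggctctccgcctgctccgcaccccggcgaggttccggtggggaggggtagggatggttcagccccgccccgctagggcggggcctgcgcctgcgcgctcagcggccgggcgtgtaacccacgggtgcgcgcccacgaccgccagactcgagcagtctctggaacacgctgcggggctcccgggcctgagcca
The motif was present in 13.3% of all 35116 windows of this length. Of the 42 antioxidant genes higher at 0.12 µM than in DMSO, 31 were in the table, and 11 of their 43 windows (25.6%) held it. Both GCLM and CBR1 held 1 match. The windows of NQO1, PTGR1 and TXN held none, which says only that these letters are not in those windows. A match is a description of the letters and not a site.

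Glutathione synthesis held the largest change after HMOX1 among those 42 genes. GCLM encodes the modifier subunit of glutamate-cysteine ligase, which carries out the first step of glutathione synthesis. It stood at 548, 721, 412 and 619 CPM at 0.12 µM, against 276, 328, 330.5 and 292 CPM at 0.04 µM, so that the wells did not overlap. The log2 change was 0.91 ± 0.34 SE (95% interval 0.23 to 1.59), with an adjusted p of 1.00 in edgeR's quasi-likelihood test. Its catalytic partner GCLC was low and scattered, with 9.31 ± 2.96 CPM at 0.12 µM and 13.3 ± 13.6 CPM at 0.04 µM (mean ± SD, n = 4 each, as for all such pairs here). SLC7A11, the cystine importer, had 112 ± 23.8 CPM against 90.9 ± 32.5 CPM, and its wells overlapped. GSR, which reduces oxidised glutathione, had all 4 wells higher, with 99.1 ± 6.29 CPM against 71.9 ± 13.8 CPM. It was higher again at 0.37 than at 0.12 µM, by 0.95 on the log2 scale (adjusted p = 0.0472).

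The quinone and carbonyl group spread from clear separation to overlap. PTGR1, a reductase of prostaglandins and reactive alkenals, stood at 587, 549.6, 536 and 667 CPM at 0.12 µM, against 357, 343, 273 and 372 CPM at 0.04 µM. All 4 wells were higher, by 0.80 ± 0.22 SE on the log2 scale (adjusted p = 0.560, edgeR quasi-likelihood), and 4 of 17 alternative settings called it. NQO1, a quinone reductase widely used as an NRF2 readout, stood at 2960.0, 3254, 2951 and 3073 CPM, against 2264, 2451, 2363 and 2515 CPM. Its wells did not overlap either, and the log2 change was 0.35 ± 0.21 SE (95% interval -0.06 to 0.76, adjusted p = 1.00). In the step above, 0.37 against 0.12 µM, PTGR1 rose by 0.77 (adjusted p = 0.0128) and NQO1 by 0.73 (adjusted p = 0.0138, edgeR quasi-likelihood).

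AKR1C2 and CBR1 of the same group were held. AKR1C2, an aldo-keto reductase, stood at 434, 449, 462 and 454 CPM at 0.12 µM, against 415, 461, 437 and 446 CPM at 0.04 µM and 136 CPM in DMSO wells. Its wells overlapped, and the log2 change was 0.03 (95% interval -0.45 to 0.52). Reads may be split between AKR1C2 and its near copies AKR1C1 and AKR1C3. CBR1, a carbonyl reductase, had 342 ± 26.5 CPM against 314 ± 37.8 CPM. AKR1C2 fell by 0.83 at 0.37 against 0.12 µM (adjusted p = 0.0204, edgeR quasi-likelihood).

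Of 11 thioredoxin genes tested, 4 were held (4.53% of all genes) and 2 had all 4 wells higher (1.75% of all genes). The held share rises with level, to 34.6% of all genes at 100 to 1000 CPM and 83.2% from 1000 CPM upward. The 4 held are therefore not a trait of this group. TXN, thioredoxin itself, stood at 5323, 5607, 5008 and 5295 CPM at 0.12 µM, against 4709.7, 4656, 4246 and 4311 CPM at 0.04 µM. Every well was higher, yet the change of 0.24 (95% interval -0.02 to 0.51, log2) lay within 1.5-fold, so TXN counted as held. TXNRD1, the reductase that recharges it, had 1431 ± 115 CPM against 1248 ± 58.4 CPM with overlapping wells. PRDX1, a peroxiredoxin that thioredoxin reduces, had 505 ± 21.0 CPM against 409 ± 25.3 CPM without overlap. PRDX6, another peroxiredoxin, was held at 547 ± 46.9 CPM against 525 ± 74.0 CPM.

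Ferritin, the iron store, was held in both chains. FTL, the light chain, stood at 48231, 55928, 47357 and 58523 CPM at 0.12 µM, against 45620.0, 50179, 42336 and 49848 CPM at 0.04 µM, a log2 change of 0.16 (95% interval -0.05 to 0.38). At both doses the left-side wells were the higher ones. FTL rose by 0.58 at 0.37 against 0.12 µM (adjusted p = 6.24e-05, edgeR quasi-likelihood). FTH1, the heavy chain, had 1960.5 ± 104 CPM against 1819 ± 154 CPM. Both genes have many near-identical pseudogenes that may take a part of their reads.

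Among enzymes that supply NADPH, TKT, the transketolase of the pentose phosphate pathway, stood at 847, 701, 724 and 769 CPM at 0.12 µM, against 849, 839.9, 819 and 804 CPM at 0.04 µM and 414 CPM in DMSO wells. It was held, with a log2 change of -0.12 (95% interval -0.50 to 0.25). At 0.37 against 0.12 µM TKT fell by 1.79 (adjusted p = 2.75e-11), and that step differed from the one at 0.12 µM (adjusted p = 6.06e-04, edgeR quasi-likelihood). PGD, which yields NADPH in the same pathway, had 917 ± 101 CPM against 741 ± 38.6 CPM with no overlap. ME1, malic enzyme, had all 4 wells higher at 210.2 ± 35.3 CPM against 158 ± 16.1 CPM.

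Transcripts of NRF2 and of its main inhibitor and competitor overlapped between the doses. NFE2L2, which encodes NRF2, had 152 ± 3.63 CPM at 0.12 µM and 133 ± 16.8 CPM at 0.04 µM. KEAP1 had 79.3 ± 15.0 CPM against 71.9 ± 14.5 CPM, and BACH1 94.4 ± 25.8 CPM against 79.2 ± 19.9 CPM. TRIM16, a ubiquitin ligase reported to stabilise NRF2, had all 4 wells higher, at 66.4 ± 3.16 CPM against 37.7 ± 11.6 CPM, and has a near copy, TRIM16L. OSGIN1, an oxidative stress-induced growth inhibitor, had 28.4 ± 7.85 CPM against 22.2 ± 8.05 CPM. SRXN1, sulfiredoxin, did not pass the filter on low counts.

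Over 7 lists of antioxidant genes, 100 members were tested and HMOX1 was the one called. Their median log2 change was 0.15, against -0.01 over all genes tested, and 69 of 100 were above 0. The 4 wells lay all above for 14 members and all below for 4, beside 1.75% and 1.64% of all genes. Held were 18 members, beside 4.53% of all genes, a share that rises with a gene's level. Of the 45 members higher at 0.37 µM than in DMSO, 41 were above 0 with a median of 0.24. All 4 wells were higher for 14 of the 45 (31.1%) and lower for 1. The contrast of 0.37 µM with DMSO compares no well of these 2 doses. The lists themselves were chosen with earlier results of these data known, so these counts are a description.

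By mean CPM, the distance covered by 0.04 µM differed between genes, but for most of them the difference was not resolved. At 0.12 µM against DMSO, 179 genes were called higher (1.25%) and 146 lower (1.02%), and 42 of those higher were antioxidant genes. The share of their 0.12 µM change already present at 0.04 µM, taken on mean CPM above the DMSO mean, had a median of 77.3%. It was under 50% for 4 genes, HMOX1 at 26.7%, TRIM16 at 44.2%, GCLM at 47.0% and PTGR1 at 47.4%. It was 90% or more for 6, up to 119.5% for TKT and 145.4% for ALDH3A2, an aldehyde dehydrogenase whose 4 wells were all lower at 0.12 µM. Since the choice of the 42 used the wells at 0.12 µM, these shares are a description. They carry no interval, and HMOX1 was the one gene of the 42 whose step was called. The 95% interval of the log2 change was -0.12 to 1.76 for TRIM16 and -0.76 to 0.23 for ALDH3A2. It was 0.23 to 1.59 for GCLM and 0.37 to 1.23 for PTGR1.

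**Figure D2:**
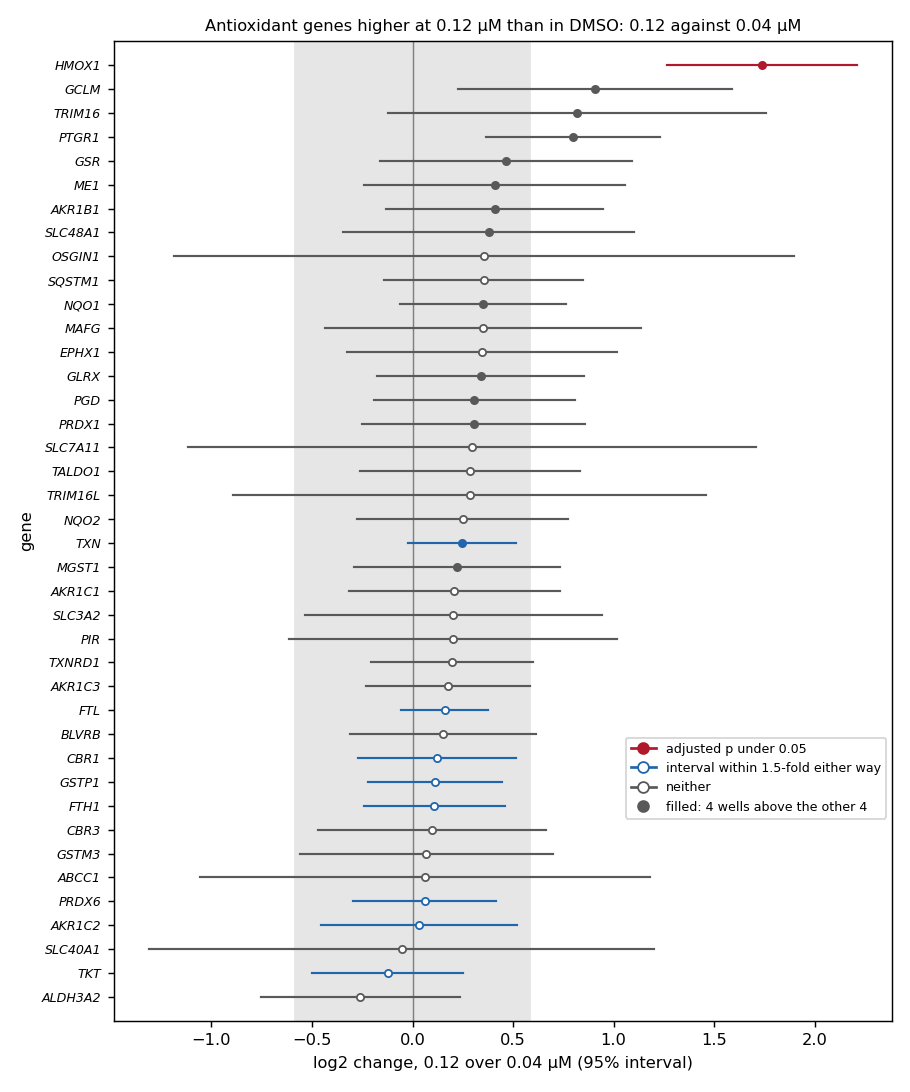
Log2 change at 0.12 over 0.04 µM (horizontal) with its 95% interval for 40 of the 42 antioxidant genes higher at 0.12 µM than in DMSO, in order of size; AKR1B10 is left off for its wide interval, and 1 gene is not reported. The grey band marks 1.5-fold either way, filled points are genes whose 4 wells lay all above, and the 8 genes in blue are held.

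Over all genes, 86 were higher (0.603%) and 28 lower (0.196%) at 0.04 µM than in DMSO. Of these 114, 1 was still moving at 0.12 µM, 14 were held and 99 could be placed in neither class. Of all genes tested 4.53% were held, a share that rises with a gene's level. The 14 held were GSTP1, FTL, GAPDH, FHL2, PRDX6, TXN, OSR1, AKR1C2, CBR1, TKT, B2M, FTH1, HINT1 and PTMA. The wells at 0.04 µM enter both comparisons, so this split is a description. It also depends on the fit: without the wells at 1.11, 3.33 and 10 µM, 297 genes were called and 102 of them held. OSR1, a developmental transcription factor, had 315 ± 24.4 CPM against 316 ± 14.3 CPM and 194 CPM in DMSO wells, and fell by 1.70 at 0.37 against 0.12 µM (adjusted p = 5.68e-07, edgeR quasi-likelihood). GAPDH, the glycolytic enzyme, had 3841 ± 549 CPM against 3662 ± 370.1 CPM. PTMA, prothymosin alpha, had 1209.9 ± 51.7 CPM against 1379 ± 86.3 CPM, below the 1826 CPM of DMSO wells.

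Gene sets chosen on other wells leaned in their own direction. The 1598 genes higher at 0.37 µM than in DMSO (11.2%) had a median log2 change of 0.14 at 0.12 against 0.04 µM, with all 4 wells above for 6.20% and all below for 0.751%. The 1941 genes lower at 0.37 µM (13.6%) had a median of -0.17, with all 4 wells below for 4.84% and all above for 0.412%. Of the 29 genes already higher at 0.014 µM than in DMSO, 8 (27.6%) had all 4 wells above, beside 1.75% of all genes. Their median was 0.24, and 6 were held, beside 4.53% of all genes, a share that rises with level.

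**Figure D3:**
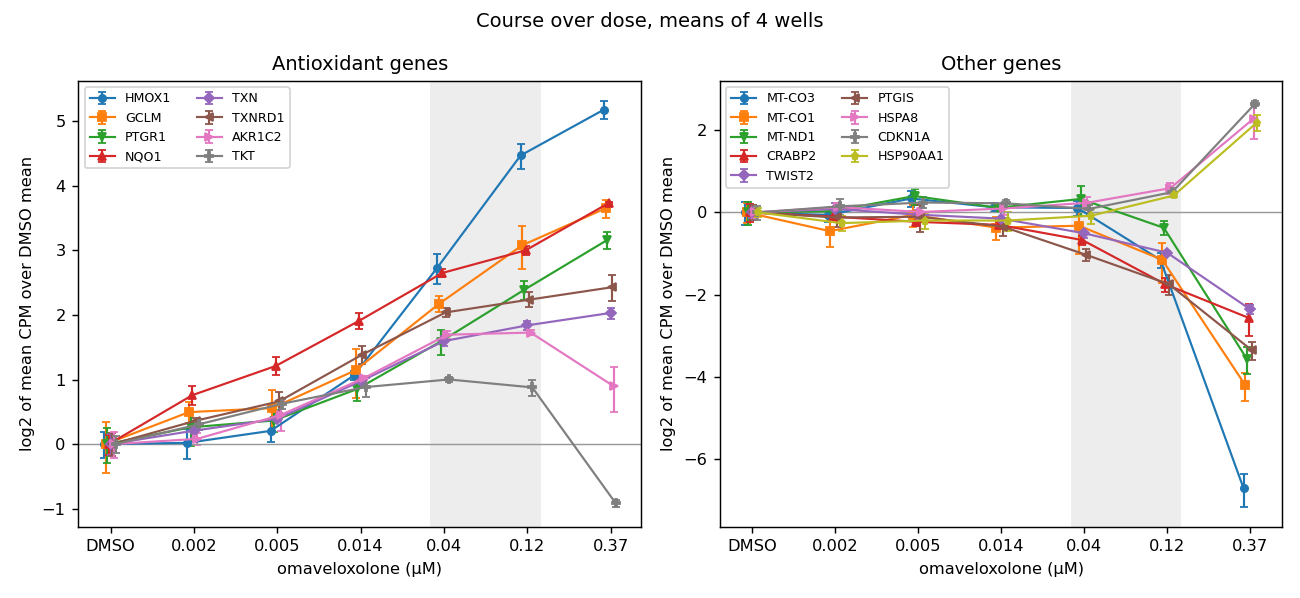
Log2 of mean CPM over the DMSO mean (vertical) against dose of omaveloxolone (horizontal, DMSO to 0.37 µM, evenly spaced), with bars for 1 SD over 4 wells or 32 DMSO wells. The grey band spans 0.04 and 0.12 µM; HMOX1 climbs across it, TXN and AKR1C2 change little, and MT-CO3 leaves its DMSO level within it.

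MT-CO3, the mitochondrially encoded subunit 3 of cytochrome c oxidase, was the one gene called lower in the fit of all wells. Its level was 2375, 1778, 2082 and 2211 CPM at 0.12 µM, against 5724, 4354, 5566 and 4663 CPM at 0.04 µM. The wells at 0.04 µM lay within the range of DMSO wells, 2989.6 to 6458 CPM, and those at 0.12 µM below it. MT-CO3 fell by 1.27 on the log2 scale (SE 0.24, 95% interval -1.75 to -0.78, adjusted p = 0.0123, edgeR quasi-likelihood). The log2 change was -1.18 in the left side and -1.34 in the right side of the plate. At 0.37 against 0.12 µM it fell by 5.56 (adjusted p = 3.17e-26), and the steps differed (adjusted p = 1.39e-12). The call was lost without replicate 2, 3 or 4 at 0.12 µM and without replicate 1 or 3 at 0.04 µM, and kept in the other 3 of 8 fits that left out 1 well, with log2 changes of -1.32 to -1.18 and adjusted p of 0.0185 to 0.186.

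Most other mitochondrially encoded mRNAs had lower values without passing the test. Of the 13 tested, 11 were below 0, with a median log2 change of -0.70 against -0.01 for all genes, and 2, MT-CO3 and MT-ND1, had all 4 wells below, beside 1.64% of all genes. MT-ND1, a subunit of complex I, stood at 367, 282, 349.9 and 307 CPM at 0.12 µM, against 639.5, 466, 643 and 377 CPM at 0.04 µM, a log2 change of -0.70 (95% interval -1.26 to -0.15). MT-CO1, the catalytic subunit of cytochrome c oxidase, stood at 886, 541, 967 and 509 CPM, against 1529, 886, 1854 and 884 CPM. Its right-side wells were the higher ones at both doses, and the log2 change was -0.75 within the left side and -0.87 within the right side. MT-ATP6, an ATP synthase subunit, had 0.04 in the left side and -1.59 in the right side, so its estimate of -1.26 rests on the right side of the plate.

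The share of all counts in the 13 mitochondrial mRNAs was 0.525%, 0.337%, 0.488% and 0.396% at 0.12 µM, against 1.02%, 0.693%, 1.09% and 0.692% at 0.04 µM. The groups did not overlap, with 0.437 ± 0.0857% against 0.876 ± 0.213%, beside 0.928 ± 0.173% in 32 DMSO wells. An exact two-sided permutation test gave p = 0.0286, the smallest that 4 against 4 wells allow, and 0.0857 after Benjamini-Hochberg adjustment over 3 measures of the wells. The other measures were total counts (ratio of means 1.13, exact permutation p = 0.229, adjusted 0.343) and genes detected (ratio 1.00, exact permutation p = 0.971, adjusted 0.971). MT-CO3 alone held 0.238%, 0.169%, 0.211% and 0.211% of all counts at 0.12 µM, against 0.555%, 0.427%, 0.558% and 0.451% at 0.04 µM. It made up a large part of the share of the 13, which is therefore not separate from the call of MT-CO3. MTCO3P12, a nuclear copy of MT-CO3, had 0.307 to 0.438 CPM against 1.36 to 4.04 CPM. What part the mitochondrial share has in the other changes was not tested.

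Collagens and other matrix genes, the main product of dermal fibroblasts, had mostly lower values and no call in the fit of all wells. Of 30 tested, 26 were below 0 with a median log2 change of -0.44, against a median of -0.01 over all genes. Of all 14269 genes, 6838 were above 0. All 4 wells were above for 0 of the 30 and below for 0, beside 1.75% and 1.64% of all genes. COL1A1, a chain of type I collagen, stood at 2527, 1798, 3677 and 1839.9 CPM at 0.12 µM, against 3822, 2701, 4593 and 2821 CPM at 0.04 µM. The wells overlapped, with replicate 3 highest at both doses, and the log2 change was -0.60 in the left side and -0.44 in the right side. DMSO wells themselves reached over 1257 to 6520.0 CPM. SPARC, a collagen-binding glycoprotein, had 425 ± 131 CPM against 669 ± 160.3 CPM. FN1, fibronectin, had 954 ± 218 CPM against 1229 ± 219.8 CPM. LUM, the proteoglycan lumican, had 45.5 ± 25.1 CPM against 22.7 ± 15.9 CPM, on the other side.

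Several genes singled out after their values were seen lay lower in every well. CRABP2, which carries retinoic acid to its nuclear receptor, stood at 57.5, 47.9, 43.2 and 47.4 CPM at 0.12 µM, against 103, 105, 113 and 94.0 CPM at 0.04 µM and 165 CPM in DMSO wells. The log2 change was -1.08 ± 0.25 SE (adjusted p = 0.173, edgeR quasi-likelihood), and 4 of 17 alternative settings called it. TWIST2, a mesenchymal transcription factor, stood at 881, 819, 826 and 824 CPM, against 1273, 1168, 1057 and 1156 CPM. PTGIS, prostacyclin synthase, had 94.3 ± 16.1 CPM against 155 ± 15.9 CPM. BDKRB2, the bradykinin B2 receptor, had 8.14 ± 1.60 CPM against 24.3 ± 3.83 CPM. Above 0.12 µM, at 0.37 µM, TWIST2 fell by 1.38 (adjusted p = 9.38e-11), PTGIS by 1.61 (adjusted p = 1.01e-05) and BDKRB2 by 4.14 (adjusted p = 9.58e-09, edgeR quasi-likelihood).

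HSPA8, HSPA1A and CDKN1A, stress-response genes, changed more in the step above 0.12 µM than in this one. HSPA8, the constitutive HSP70, stood at 659, 759, 669 and 789.9 CPM at 0.12 µM, against 574, 557, 485 and 631 CPM at 0.04 µM, without overlap. HSP90AA1, the inducible HSP90, had 604 ± 13.9 CPM against 429 ± 55.1 CPM, also without overlap. HSPA1A, the inducible HSP70, whose near copy HSPA1B may share its reads, was held at 119 ± 12.6 CPM against 118 ± 19.6 CPM. At 0.37 against 0.12 µM HSPA8 rose by 1.69, HSP90AA1 by 1.78 and HSPA1A by 4.38 on the log2 scale. The difference of the steps was called for HSPA8 (adjusted p = 0.00393) and HSPA1A (adjusted p = 1.85e-08) but not for HSP90AA1 (adjusted p = 0.130, edgeR quasi-likelihood). CDKN1A, the p53 target that blocks cyclin-dependent kinases, stood at 229.7, 218, 213 and 192 CPM, against 162, 165, 146 and 169 CPM. It rose by 2.16 in the step above, more than in this one (adjusted p = 4.28e-05).

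Of 22 heat shock genes tested, 16 were above 0 with a median log2 change of 0.12, 2 had all 4 wells higher and 6 were held. Of all 14269 genes, 6838 were above 0, 1.75% had all 4 wells higher and 4.53% were held, a share that rises with a gene's level. Of 31 proteasome subunits, 26 were above 0 with a median of 0.21, and 3 (PSMD3, PSMD11 and PSMA7) had all 4 wells higher, beside the same 1.75% of all genes. PSMD11, a lid subunit of the proteasome, had 176 ± 8.31 CPM against 132 ± 15.4 CPM. The summed level of the subunits lay between 4658 and 4773 CPM at 0.12 µM, against 4072 to 4182 CPM at 0.04 µM.

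A pair of stress genes had lower values at 0.12 µM and higher ones at the next dose. HSPA5, the HSP70 of the endoplasmic reticulum, stood at 66.1, 51.1, 69.6 and 22.7 CPM at 0.12 µM, against 78.5, 107, 133 and 86.1 CPM at 0.04 µM. DDIT4, a stress-induced inhibitor of mTOR, stood at 10.1, 9.04, 11.3 and 9.20 CPM, against 26.6, 33.5, 20.5 and 24.2 CPM. Neither gene's wells overlapped, but neither fall was called (for DDIT4, adjusted p = 0.543, edgeR quasi-likelihood). At 0.37 against 0.12 µM HSPA5 rose by 2.61 and DDIT4 by 2.52, and the difference of the steps was called for both (adjusted p = 3.16e-04 and 1.88e-04, edgeR quasi-likelihood). Both genes were named for a small p in the step at 0.12 µM, and the wells at 0.12 µM enter both steps. The difference of the steps is therefore a description here. Of 19 reticulum genes 16, and of 24 ATF4 targets 18, were below 0. Their medians were -0.11 and -0.15, against -0.01 over all genes.

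**Figure D4:**
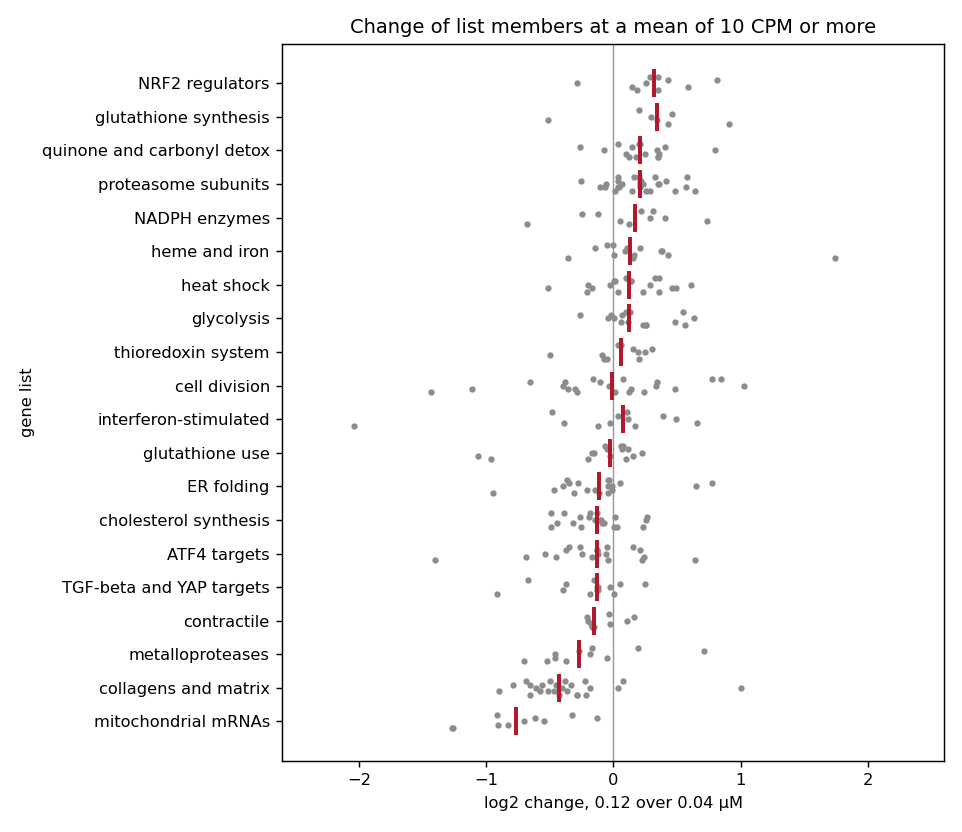
Log2 change at 0.12 over 0.04 µM (horizontal) of members of 20 gene lists (vertical) with a mean of 10 CPM or more; there are 310 grey points, and red bars are medians of the plotted members. Most NRF2 and proteasome members lie right of 0, and most matrix genes and mitochondrial mRNAs left of 0.

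The interferon list, 23 genes tested, had a median log2 change of -0.03 and no call. IFIT1, an interferon-induced antiviral gene, had 5.72 ± 3.39 CPM against 23.5 ± 8.25 CPM, with all 4 wells lower. In lists on lysosome, lipid, contractile, TGF-beta, metalloprotease, inflammatory, cell division, immediate early, metallothionein and glycolysis genes no member was called. Their medians lay between -0.32 (12 metalloproteases and inhibitors) and 0.12 (19 immediate early genes).

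Over all genes the next step up was called far more often. At 0.37 against 0.12 µM 374 genes were called higher (2.62%) and 774 lower (5.42%), and at 0.04 against 0.014 µM 1 higher and 0 lower (635 at an unadjusted p under 0.05). The difference between the step at 0.12 µM and the one below was called for 0 genes in edgeR's quasi-likelihood test (553 at an unadjusted p under 0.05) and for 2 in each direction by DESeq2. The difference between the step at 0.37 µM and the one at 0.12 µM was called for 29 genes in the positive (0.203%) and 106 in the negative direction (0.743%).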

How the data were processed

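DRUG-seq libraries of 72 wells were deposited as a table of raw gene counts per well; kallisto, bustools and the build GRCh38 are named per the submitters' processing notes, and their versions and any use of molecular identifiers are not given in the sources used here. The deposited counts were analysed with edgeR 4.0.16 in R 4.3.3 (TMM factors; filterByExpr, minimum count 10; 1 robust quasi-likelihood fit over all 72 wells with a mean per group). Contrasts were 0.12 against 0.04 µM, its neighbouring steps, differences of steps, and doses against DMSO, each with Benjamini-Hochberg adjustment over 14269 genes and a threshold of 0.05. DESeq2 1.42.0 and other settings served as alternatives. Measures of whole wells were compared by exact permutation over 70 splits. The fit was tested on simulated counts. Intervals for CPM are not given. Wells at 0.12 and 0.04 µM held 5633772 to 9001372 counts each. Standard errors rest on the spread between wells, estimated over all 72 wells.

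The members and gene lists were chosen with earlier results of these data known. Named genes were NRF2 pathway genes, genes called whose wells do not overlap, up to 3 members of each of 26 gene lists and 6 marker lists by smallest p, 10 held genes by smallest p against DMSO, genes called here but not at 0.04 µM, and a few marked as singled out later or given as list examples after their values were seen. No 2 wells of a dose agreed within sampling noise. Results for a few genes are not reported here.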

Additional observations from a re-analysis of the deposited data

Results flagged for a closer look

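For each named gene and each measure of the wells, the highest or lowest of the 4 wells of a dose was compared with the other 3. In 23 of 238 groups of 4 wells 1 well stood apart, its gap to the nearest well, as a share of the group's range, being above Dixon's 95% critical value. Chance alone flags about 1 in 20 groups of normally distributed values, and groups of the same wells are not independent. A group in which only 1 well had any count is always flagged, and that rate does not apply to it. Such groups include FOSB, KRT15, DSG3, MLANA and CD79A at 0.12 µM, and LIF, MAFK, DSG3 and CD74 at 0.04 µM. The value of the well that stood apart is given in parentheses.

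At 0.12 µM the genes were BACH2 (5.75 CPM), ACACA (26.4 CPM), FOSB (3.99 CPM), FOS (12.6 CPM), HK2 (41.8 CPM) and TWIST2 (881 CPM). They further included KRT15 (1.86 CPM), DSG3 (0.237 CPM), MLANA (0.237 CPM), CD79A (2.19 CPM), FTH1 (2115 CPM) and HSPA1A (100.1 CPM).

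At 0.04 µM the genes were MAFK (2.93 CPM), GSR (51.3 CPM), PSMD14 (108 CPM), LUM (46.6 CPM), MYL9 (352 CPM) and LIF (5.98 CPM). They further included BBC3 (61.0 CPM), FOS (1.99 CPM), DSG3 (0.735 CPM), PECAM1 (1.42 CPM) and CD74 (0.997 CPM). For GSR the well that stood apart was the lowest of its 4. That well lowers the mean at 0.04 µM given above, but the separation of the wells does not rest on it. For LUM the well that stood apart was the highest.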

How the results depend on the processing

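HMOX1 was called higher in 17 of 17 alternative settings (log2 change 1.68 to 1.86, adjusted p 5.17e-17 to 0.0456) and MT-CO3 lower in 11 of 17 (log2 change -1.32 to -1.18, adjusted p 3.24e-07 to 0.303). No gene value named here that was called changed sign. The number of other genes called depended on the setting, and the cause was not tested. At 0.12 against 0.04 µM, higher and lower calls were 3 and 18 by DESeq2's Wald test, 4 and 2 with the wells of the compared doses alone, and 2 and 14 without the 3 highest doses. Leaving out 1 well of either dose gave 1 higher call and 0 to 2 lower calls; the lower call was lost (0) without replicate 2, 3 or 4 at 0.12 µM and without replicate 1 or 3 at 0.04 µM.

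The difference from the step below gave 2 and 2 calls by DESeq2, 0 and 2 without the filter, and 0 and 1 with the compared doses alone. The difference between the step above and this one gave 48 and 66 with DESeq2 size factors, 227 and 136 by DESeq2's Wald test, 142 and 222 with the compared doses alone, and 119 and 409 without the 3 highest doses. Leaving out 1 well gave 13 to 26 positive and 68 to 98 negative calls.

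Genes called at 0.04 µM against DMSO, and of them moving, held and in neither class, were 258, 9, 54 and 195 by DESeq2, 290, 1, 14 and 275 without the filter, 319, 11, 108 and 200 with the compared doses alone, and 297, 9, 102 and 186 without the 3 highest doses. Held genes were 6 to 15 when 1 well was left out. With a band of 1 on the log2 scale, 52 were held and 61 were in neither class.

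Replicate numbers did not clearly pair the wells: deviations of same-numbered wells correlated at 0.059, 0.136, 0.335 and 0.110, and 2 of 4 wells correlated best with their own number. Plate side did show: wells of the same side correlated at 0.028 to 0.335, wells of opposite sides at -0.264 to 0.011. A fit with plate side as a covariate, chosen after seeing the data, called 1 gene higher and 1 lower. With the replicate block on treated wells only, 1 gene was higher and 0 lower in this step, and the difference from the step above gave 2 and 19. An alternative chosen after seeing the data, the 8 wells alone with the replicate block, gave 9 higher and 15 lower. That fit called the matrix genes COL1A1 (adjusted p = 0.00228), COL1A2 (0.00323), SPARC (0.0153) and COL3A1 (0.0254), the mitochondrial mRNAs MT-CO1 (1.62e-04), MT-CYB (0.0185) and MT-ND1 (0.0254), and CCDC80 (0.0240), all lower, and none of these 8 was called in any other setting. Higher calls included NQO1, GCLM, PTGR1, TXN, FTL and HSP90AA1. Wells of one dose differed by more than sampling noise (chi-square per degree of freedom 20.8 to 35.5), and how much depth and spread between wells each limit the calls was not tested.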
